A study of Homo sapiens with 9 samples.

Results

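The HSP90 chaperones were followed through 4 paralogous genes picked by name, TRAP1 for the mitochondria, HSP90AA1 and HSP90AB1 for the cytosol and HSP90B1 for the endoplasmic reticulum. They make up 4 of the 22290 genes in the expression table, and all 4 had a value in each of the 9 libraries, so no filter removed a member. RNA was sequenced from cells labelled IMR-32, a human neuroblastoma line, in 3 groups of 3 libraries. The parental group had the genotype WT, the KD group was labelled TRAP-1 knockdown and the OE group was labelled TRAP-1 overexpression. Parental cells were the only control analysed here. The KD and OE lines had been made for earlier work, and the construct each carried, its promoter and whether a line was a single clone were not given in the sources used here.

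HSP90 proteins are dimeric chaperones that bind and hydrolyse ATP and help late folding steps of client proteins such as kinases and steroid receptors. In the cytosol, HSP90AA1 is the form most strongly induced by heat shock factor 1 (HSF1) under stress and HSP90AB1 is the more constant form, and both work with co-chaperones. HSP90B1, also called GRP94, folds secreted and membrane proteins and is induced with other chaperones when unfolded proteins gather in the endoplasmic reticulum. TRAP1 works inside mitochondria, where it binds respiratory enzymes, and no dedicated co-chaperone of the cytosolic kind is known for it.

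The values were regularized log2 values (rlog), which are log2 normalised read counts drawn towards each gene's mean over the libraries, so a difference between groups may understate the true fold change. The methods state a nominal sequencing depth, but the number of reads in each library cannot be read from these values. A gene was called when limma, fitted over all 9 libraries and all 22290 genes, gave a Benjamini-Hochberg adjusted p under 0.05. Nothing in the labels says that the 3 libraries of a group came from separate cultures. The p-values thus rest on the spread between libraries, which may be technical. The fit also draws each gene's spread towards a trend over all genes, so an SE is not that of the gene's own libraries alone. Without that variance trend the limma adjusted p of HSP90AA1 in KD was 6.06e-09 rather than 3.14e-31. Over 9956 genes with a mean rlog of 8 or more, the root mean square difference between libraries of the same group ran from 0.0453 to 0.0528 log2, and that between libraries of different groups from 0.152 to 0.289, so no library stood with another group and none was a copy of another.

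The cell type label was checked against marker genes. Of 20 genes that mark adrenergic neuroblastoma, 12 had values. The others were not counted as low, since the cause of a missing value was not tested. HSPE1 and SDHA, of the mitochondrial list below, had none either. Of the 12 with values, 6 had a mean rlog under 5, beside a median of 7.05 over all genes. Among the defining ones, MYCN stood at 2.54, PHOX2A at 1.34 and TH at 2.73, whereas ISL1 stood at 9.29, GATA2 at 9.20 and NEFL at 9.24. Of 7 Schwann or glial markers, 4 had values, and ERBB3 reached 14.13 and S100B 11.19. KRT18 was at 12.04 among the epithelial markers and PRRX1 at 12.36 among the mesenchymal ones, and the highest of the endothelial and immune markers were PECAM1, which stood above ISL1, and LYZ at 5.82. Of the measured markers, 5 of 9 epithelial, 7 of 10 mesenchymal, 1 of 4 endothelial and 2 of 4 immune ones were under 5, EPCAM, COL1A1, COL3A1, CDH5 and PTPRC among them. Thus several genes that define the labelled cell type stood well below the median of the table. The paper states that the IMR-32 cells had been authenticated. The cells are called below only by their library labels.

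The summed levels of the marker lists also differed between the groups, though each sum follows its most abundant genes. The summed level of the 10 measured mesenchymal markers was 12.05 log2 on average in the parental libraries, 13.17 in those labelled KD and 12.65 in those labelled OE, and PRRX1 accounted for most of it. For the 4 Schwann or glial markers the sums were 14.30, 14.54 and 14.46, for the 12 neuroblastoma markers 11.08, 10.96 and 11.20, and for the 9 epithelial markers 12.52, 12.56 and 12.39. The 4 endothelial markers summed to 9.99, 10.12 and 9.58, and the 4 immune markers to 6.99, 6.78 and 6.87. The single genes did not all move with their sum. In KD, 2 of 10 mesenchymal markers were called higher and 1 lower, 1 of 4 glial ones each way, 3 of 12 neuroblastoma ones higher and 6 lower, 1 of 9 epithelial ones each way, 2 of 4 endothelial ones higher and 1 lower and 3 of 4 immune ones lower, beside 53.7% of all genes called. In OE, with 34.8% of all genes called, 4 mesenchymal ones were higher, 3 glial ones higher, 1 neuroblastoma one higher and 2 lower, 1 epithelial one higher and 2 lower, 2 endothelial ones lower and 2 immune ones lower. The part of such shifts in the HSP90 values was not tested, and in bulk RNA fewer cells of a type and less RNA per cell cannot be told apart.

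TRAP1 was examined first, because it is the gene that the labels say was altered. Its rlog values were 10.67, 10.66 and 10.65 in the parental libraries, 10.79, 10.78 and 10.83 in those labelled KD, and 10.67, 10.63 and 10.74 in those labelled OE. The libraries labelled KD therefore lay above every parental and every OE library, and the libraries labelled OE lay on both sides of the parental ones. The mean in the libraries labelled KD was 0.14 log2 above the parental mean, with an SE of 0.025, a 95% confidence interval of 0.09 to 0.19 and a limma adjusted p of 1.76e-05, which is 110% of the parental level. In the libraries labelled OE the difference was 0.02 log2, with an SE of 0.025, a 95% confidence interval of -0.03 to 0.07 and an adjusted p of 0.643. Without OE replicate 3 that difference was -0.01. Directly compared, the libraries labelled OE were lower than those labelled KD by 0.12 log2, the difference being -0.12 with an adjusted p of 1.47e-04, and -0.06 (adjusted p 0.0241) with 20-Mb block medians removed. TRAP1 thus went against the KD label, and in OE it was called above parental only with 20-Mb block medians removed (0.06, adjusted p 0.0343). In size the KD difference was ordinary, since 2300 of 9956 genes with a mean rlog of 8 or more rose further. The median absolute difference of those 9956 genes in KD was 0.13 log2. Each direction given below is that of libraries carrying a label, not of cells shown to have lost or gained TRAP1 mRNA.

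The TRAP1 gene spans bases 3651639 to 3717553 of chromosome 16 (GRCh38, minus strand). Of the 5183 bases of its merged exons, 28.5% also belong to exons of DNASE1 on the plus strand, and the library kit did not keep the strand. DNASE1 had a mean rlog of 7.53 and differed by 0.16 in the libraries labelled KD (adjusted p 9.57e-04) and by -0.06 in those labelled OE (adjusted p 0.316). Reads of the shared bases cannot be assigned to one gene or the other, and the part of DNASE1 reads in the TRAP1 values was not tested.

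**Figure D1:**
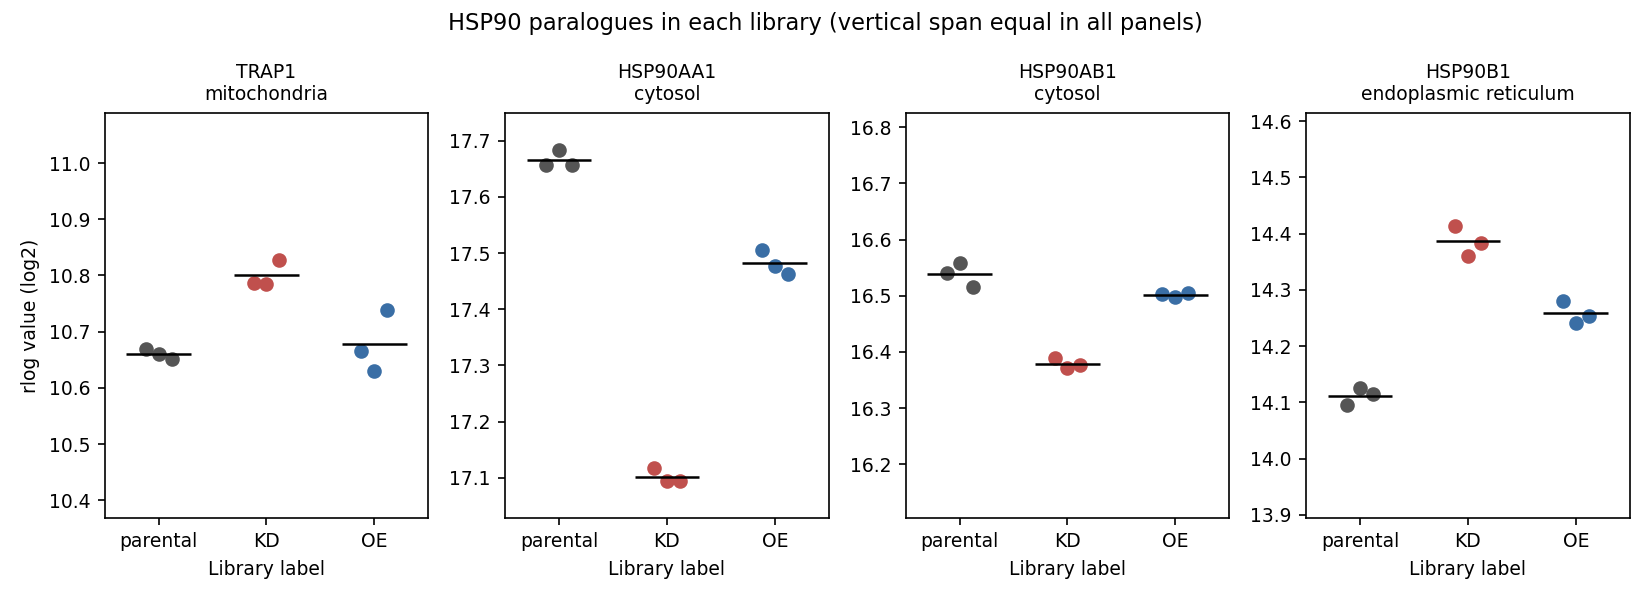
Each point is the rlog value (log2) of one library, grouped along the horizontal axis by label, with a black bar at the group mean; all 4 panels span the same vertical distance. HSP90AA1 and HSP90AB1 were lowest and HSP90B1 and TRAP1 highest in the libraries labelled KD, and only for TRAP1 did the parental and OE groups overlap.

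Across the whole table the libraries labelled KD differed widely from the parental ones, with 11980 genes called (53.7% of those tested), with 5985 above parental (26.9%) and 5995 below (26.9%). In the libraries labelled OE, 7764 genes were called (34.8%), 3762 above parental (16.9%) and 4002 below (18.0%). Between OE and KD, 10552 genes were called (47.3%), 5237 higher in OE (23.5%) and 5315 lower (23.8%). Against that background KD against parental called all 4 HSP90 paralogues, 2 as higher and 2 as lower. OE against parental called 3 of 4, 1 as higher and 2 as lower, and between OE and KD all 4 were called, 2 higher and 2 lower. The KD and OE comparisons share the parental libraries, so their values are set side by side and are not independent of each other.

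Among the cytosolic members, HSP90AA1 had the larger difference. Its values were 17.66, 17.68 and 17.66 in the parental libraries, 17.12, 17.09 and 17.09 in those labelled KD, and 17.51, 17.48 and 17.46 in those labelled OE. The 3 groups did not overlap, the parental libraries being highest and those labelled KD lowest. HSP90AA1 fell by 0.56 log2 in the libraries labelled KD (SE 0.00863, limma adjusted p 3.14e-31), to 67.7% of the parental level, and fell by 0.18 in those labelled OE (SE 0.00863, adjusted p 1.5e-17), to 88.1%. Under quantile normalization the OE difference was 0 and the call was lost. Of the 9956 genes with a mean rlog of 8 or more, 210 fell further than HSP90AA1 in the libraries labelled KD and 724 did in those labelled OE.

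HSP90AB1 moved the same way with smaller steps. Its values were 16.54, 16.56 and 16.51 in the parental libraries, 16.39, 16.37 and 16.38 in those labelled KD, and 16.50, 16.50 and 16.51 in those labelled OE. All 3 libraries labelled KD were below the other 6, and the OE libraries lay under the lowest parental library by 0.01 log2. HSP90AB1 fell by 0.16 log2 in the libraries labelled KD (SE 0.00871, limma adjusted p 1.32e-16), to 89.6% of the parental level. Among genes with a mean rlog of 8 or more, 2174 of 9956 fell further in KD and 4047 in OE. The fall in the libraries labelled OE was 0.04 log2, a difference of -0.04 (SE 0.00871, adjusted p 0.00129), to 97.5%, and this call was lost without a variance trend in limma, with a pseudocount of 10, after the median of its 20-Mb block was removed and under quantile normalization.

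The promoters of the cytosolic pair were searched because both genes fell in both comparisons and both are known targets of HSF1. The heat shock element was searched as pairs of inverted GAA units, GAANNTTC and TTCNNGAA, each of which reads the same on both strands. A run of 3 alternating units was searched as TTCNNGAANNTTC or its reverse complement GAANNTTCNNGAA, which contain the pairs of units. The RefSeq promoter table on GRCh38.p14 held all 4 members, with 2 start sites for HSP90AA1, 3 for HSP90AB1 and 1 each for HSP90B1 and TRAP1. The stretches below run from 200 to 51 bases before a start, with each run of 3 units in capitals. That of HSP90AA1 is chr14:102087095-102087244 on the minus strand, before the start of its canonical transcript and outside the exons of the gene, and its run lies 88 bases before the start, with a further TTCNNGAA at 68. That of HSP90AB1 is chr6:44247743-44247892 on the plus strand and precedes a start 842 bases downstream of the canonical one, with 27 of its bases in annotated exons of the gene, and its 2 runs lie 165 and 112 bases before that start.
HSP90AA1: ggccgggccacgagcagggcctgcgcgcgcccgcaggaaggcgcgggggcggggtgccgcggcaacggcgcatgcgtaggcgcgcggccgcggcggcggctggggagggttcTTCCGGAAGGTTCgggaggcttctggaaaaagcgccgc
HSP90AB1: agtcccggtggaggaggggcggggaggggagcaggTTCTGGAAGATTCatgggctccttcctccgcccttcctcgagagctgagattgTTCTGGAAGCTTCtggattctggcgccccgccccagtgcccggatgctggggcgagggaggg
The other HSP90AA1 and HSP90AB1 windows and the TRAP1 and HSP90B1 windows held neither pair of units. Of all 35116 promoter windows in the table, 6.77% held GAANNTTC, 7.74% held TTCNNGAA and 0.49% held a run of 3 in either orientation. A match describes letters in these windows, and binding of HSF1 was not measured.

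HSP90B1, the member of the endoplasmic reticulum, went the other way. Its values were 14.10, 14.12 and 14.11 in the parental libraries, 14.41, 14.36 and 14.38 in those labelled KD, and 14.28, 14.24 and 14.25 in those labelled OE. The groups did not overlap, with the parental libraries lowest and those labelled KD highest. HSP90B1 rose by 0.28 log2 in the libraries labelled KD (SE 0.0134, limma adjusted p 5.75e-18), to 121% of the parental level. It rose by 0.15 in those labelled OE (SE 0.0134, adjusted p 1.09e-10), to 111%. Among genes with a mean rlog of 8 or more, 1047 of 9956 rose further than HSP90B1 in KD and 969 in OE. The promoter of HSP90B1 was searched for the endoplasmic reticulum stress element, written as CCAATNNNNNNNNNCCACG on either strand, which includes the CCAAT box. The stretch chr12:103930210-103930359 on the plus strand, 200 to 51 bases before the start of the canonical transcript and wholly inside exons of a longer annotated transcript, held 2 matches, shown in capitals, at 194 and 89 bases before the start.
HSP90B1: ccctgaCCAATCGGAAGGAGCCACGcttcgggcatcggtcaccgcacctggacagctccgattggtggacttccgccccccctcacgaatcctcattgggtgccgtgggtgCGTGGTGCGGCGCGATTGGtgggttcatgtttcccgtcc
No other member's window held that element, and 0.0769% of the 35116 windows did. The window of HSP90B1 had 5 CCAAT boxes in all, and 34.6% of windows had at least 1.

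Between the libraries labelled OE and KD, the order of the groups was the same for the cytosolic pair and reversed for the other members. HSP90AA1 was 0.38 log2 higher in OE than in KD (limma adjusted p 1.47e-26) and HSP90AB1 0.12 higher (adjusted p 1.27e-13). For HSP90B1 the difference was -0.13 (adjusted p 1.11e-09). For the cytosolic pair and HSP90B1 the libraries labelled OE lay between the parental ones and those labelled KD.

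Levels of different genes were compared per kilobase of merged exons. In the parental libraries HSP90AA1 ranked 16 and HSP90AB1 21 among 22195 genes with a length, HSP90B1 ranked 1050 and TRAP1 4870. Ranks were taken with this length only. Merged exons come to 13092 bases for HSP90B1 and 5183 for TRAP1, beside canonical transcripts of 2782 and 2223. For HSP90AA1 and HSP90AB1 they come to 5097 and 2980, beside 3228 and 2555. Merged exons therefore lower HSP90B1 and TRAP1 more than the cytosolic pair. The mean log2 levels per kilobase were 15.32 for HSP90AA1, 14.96 for HSP90AB1, 10.40 for HSP90B1 and 8.29 for TRAP1, beside a median of 5.37 over all genes. HSP90AB1 was 23.6-fold above HSP90B1, and HSP90B1 4.33-fold above TRAP1, and these steps kept their order in each of the 9 libraries. Their size depends on the length used, with coding length giving 5.96-fold and 9.58-fold. The order of HSP90AA1 and HSP90AB1 was not the same in every library. In the parental libraries HSP90AA1 was above HSP90AB1 by 0.34, 0.35 and 0.37 log2, and in those labelled OE by 0.23, 0.21 and 0.18. In the libraries labelled KD the difference was -0.05, -0.05 and -0.06, so that HSP90AB1 was the most abundant member there. That reversal depends on the length used, because with coding length or the length of the canonical transcript HSP90AA1 stayed above HSP90AB1 in all 9 libraries, by at least 0.70 and 0.38 log2.

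**Figure D2:**
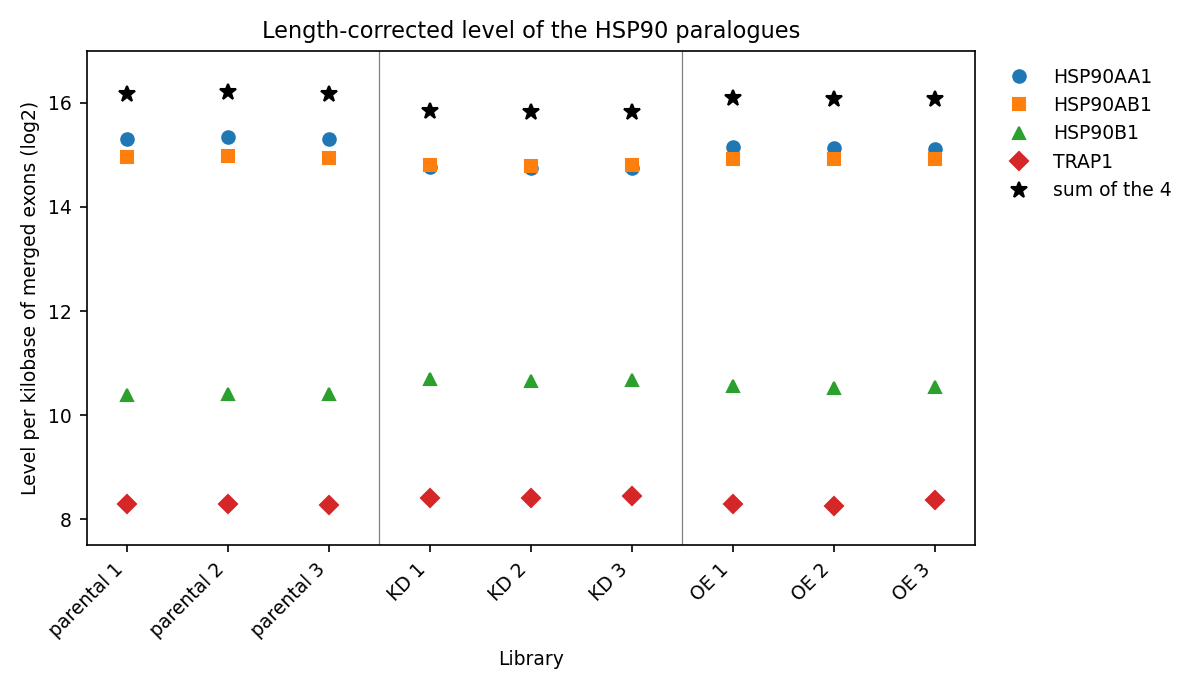
Level per kilobase of merged exons (log2) of each HSP90 paralogue, and of their sum, in each of the 9 libraries along the horizontal axis. With this length HSP90AB1 stood at least 4.11 log2 units above HSP90B1 and with coding length, not drawn, at least 2.12, and the sum was lowest in the libraries labelled KD.

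As shares of the family's summed level per length, HSP90AA1 made up 54.8% (SD 0.194, n = 3), HSP90AB1 42.9% (SD 0.213), HSP90B1 1.82% (SD 0.0197) and TRAP1 0.42% (SD 0.0050) in the parental libraries. In the libraries labelled KD, the shares were 47.4%, 49.2%, 2.81% and 0.591%. In those labelled OE, they were 52.2%, 45.2%, 2.17% and 0.459%. With merged exons the cytosolic pair thus held nearly the whole family level in each group. In the libraries labelled KD, HSP90B1 alone made up 7.86% with coding length and 9.01% with the length of the canonical transcript. Shares depend on the length used, and with coding length the parental libraries had 64.6% HSP90AA1, 29.9% HSP90AB1, 5.01% HSP90B1 and 0.523% TRAP1. With any of the lengths the share of HSP90AA1 was lower, and that of the other members higher, in the libraries labelled KD than in the parental ones.

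The question of compensation within the family was put to the summed level, which mostly follows the cytosolic pair. HSP90AA1 and HSP90AB1 alone came to 16.15 log2 per kilobase in the parental libraries, so HSP90B1 and TRAP1 could hardly move the sum. The sum therefore cannot say whether HSP90B1 or TRAP1 compensated. The 4 paralogues together came to 16.18, 16.20 and 16.17 log2 per kilobase in the parental libraries, 15.84, 15.82 and 15.82 in those labelled KD, and 16.09, 16.07 and 16.06 in those labelled OE. The groups did not overlap. The sum was lower by 0.35 log2 in the libraries labelled KD, a difference of -0.35 that leaves 78.2% of the parental level, and it differed by -0.11 in those labelled OE, which leaves 92.6%. The two-sided exact permutation test gave p = 0.1 for each of these and for OE against KD, the smallest p that 3 against 3 libraries allow. HSP90B1 and TRAP1 summed to 10.70 log2 per kilobase in the parental libraries, 10.95 in those labelled KD and 10.82 in those labelled OE. TRAP1 was not called lower in either engineered group than in parental, so a response of the other paralogues to TRAP1 loss could not be measured here.

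The balance of each pair of paralogues was compared within libraries, where library scaling cancels. HSP90AA1 minus HSP90B1 was 3.56, 3.56 and 3.54 log2 in the parental libraries, 2.70, 2.73 and 2.71 in those labelled KD, and 3.23, 3.24 and 3.21 in those labelled OE. This pair changed most, by -0.84 in KD and -0.33 in OE. HSP90AA1 minus HSP90AB1 changed by -0.40 and -0.15, and HSP90AB1 minus HSP90B1 by -0.43 and -0.18, with no overlap between the groups in either pair. HSP90B1 minus TRAP1 was 3.43, 3.46 and 3.46 in the parental libraries, 3.63, 3.58 and 3.56 in KD and 3.61, 3.61 and 3.52 in OE, so both engineered groups lay above the parental one and overlapped each other. Of the 18 tests over 6 pairs and 3 comparisons, 16 gave the smallest exact permutation p of 0.1, with a Benjamini-Hochberg adjusted value of 0.113, and none could pass 0.05 with 3 libraries a group. HSP90B1 minus TRAP1 between OE and KD had an exact permutation p of 0.8.

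**Figure D3:**
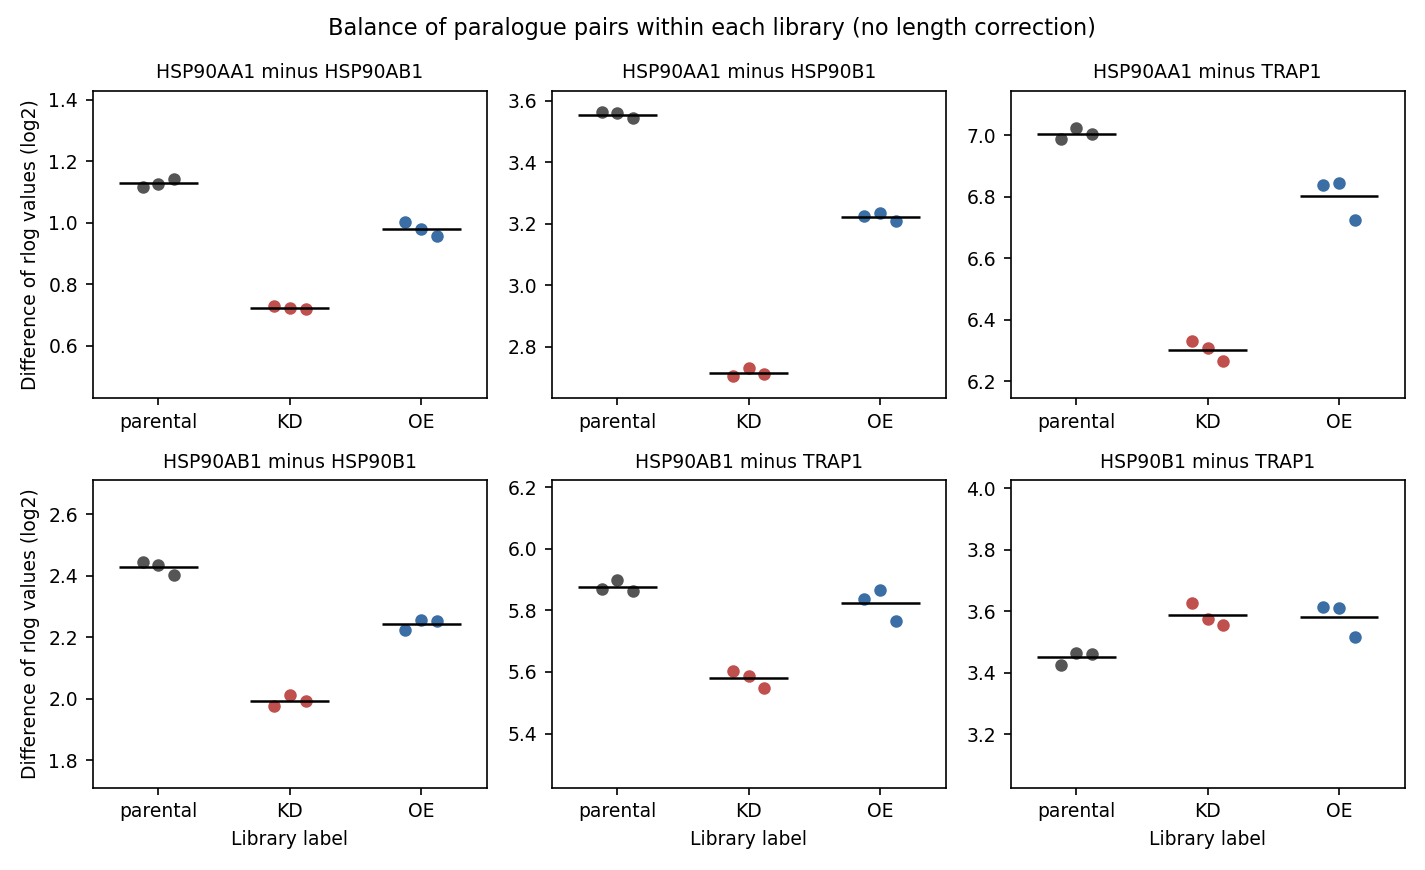
Difference of the rlog values (log2) of 2 paralogues within each library, grouped by label, with a black bar at the group mean; all 6 panels span the same vertical distance and no length correction is applied. The widest steps are those of HSP90AA1 minus HSP90B1, from a mean of 3.55 in the parental libraries to 2.72 in those labelled KD.

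Pseudogenes of the family share sequence with their parents, and how reads matching several places were counted was not given in the sources used here. Of 14 listed HSP90 pseudogenes, 7 had values, and 2 of these were called in KD and 1 in OE, all lower, beside 53.7% and 34.8% of all genes called. With block medians removed, 1 rose and 3 fell in KD and 1 fell in OE, beside 59.0% and 38.7% of all genes called, and 56.9% of the OE calls were then higher. HSP90AA2P had 11.57, 11.63 and 11.60 in the parental libraries, 11.05, 11.06 and 11.03 in those labelled KD, and 11.47, 11.45 and 11.44 in those labelled OE. It fell by 0.56 and by 0.15 log2, beside 0.56 and 0.18 for HSP90AA1, and held 1.49% of the HSP90AA1 value in the parental libraries. HSP90AB3P fell by 0.19 in KD (limma adjusted p 7.5e-07), differed by -0.01 in OE and held 1.09% of the HSP90AB1 value. The median of its 20-Mb block on chromosome 4 differed by 0.40 in KD, and with that removed HSP90AB3P differed by -0.59. HSP90AA3P (3.87), HSP90AA4P (2.75), HSP90AB2P (4.33), HSP90AB7P (0.85) and HSP90B3P (4.16) had mean rlog values under 5 and were not called in these 2 comparisons. The pseudogene levels are therefore uncertain. The reads they share with their parents were not measured.

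The surroundings of the members were also compared. The median difference over genes with a mean rlog of 8 or more in the same 20-Mb block of the chromosome was at most 0.02 in size in KD for all 4 members. In OE it was -0.06 around HSP90AA1, -0.02 around HSP90AB1, -0.01 around HSP90B1 and -0.05 around TRAP1. With that median removed, TRAP1 differed by 0.06 in the libraries labelled OE and was called (limma adjusted p 0.0343). Of the closest genes on either side that do not overlap the member and have a mean rlog of 8 or more, MOK, 84800 bases from HSP90AA1, fell by 0.58 in KD and by 0.45 in OE, whereas DYNC1H1 on the other side rose by 0.13 and fell by 0.06. SLC35B2 lies 207 bases from HSP90AB1 and rose by 0.22 and 0.09, and SLC29A1 fell by 0.27 and 0.15. WDR20, which overlaps HSP90AA1, fell by 0.12 in both comparisons. Next to HSP90B1, TDG fell by 0.19 in KD and NT5DC3 fell by 0.19 in OE, whereas of the genes overlapping it TTC41P rose by 0.27 and 0.23 and UQCC6 was called in neither. Next to TRAP1, neither SLX4 nor CREBBP was called in KD, and both fell in OE, by 0.09 and 0.07. Both OE calls, and that of DYNC1H1, were lost with block medians removed, which also made CREBBP called in KD (-0.05). The SLX4 call in OE was also lost without OE replicate 1 (-0.05), parental replicate 1 (-0.09) or parental replicate 3 (-0.09), and without a variance trend.

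The co-chaperones that bring clients to cytosolic HSP90 or set its ATPase cycle fell more often than they rose. Of 38 listed, 34 had values, and 8 rose and 19 fell in the libraries labelled KD, with a median difference of -0.12 beside -5.07e-04 over all genes, of which 26.9% rose and 26.9% fell. In OE 4 rose and 15 fell, with a median of -0.05 beside 3.94e-04 over all genes, of which 16.9% rose and 18.0% fell. With block medians removed, 8 rose and 19 fell in KD, and 5 rose and 17 fell in OE, where that setting called 59.0% and 38.7% of all genes. CHORDC1, which binds the HSP90 ATPase domain, fell by 0.61, AHSA1, the ATPase activator, by 0.32, and CDC37, the kinase adaptor, by 0.30 in KD, with limma adjusted p-values of 5.14e-17 or smaller. Those that rose most in KD were FKBP8, an immunophilin of the mitochondrial outer membrane, by 0.27, the ubiquitin ligase STUB1 by 0.25 and PIH1D1 of the R2TP complex by 0.19. In OE the immunophilin FKBP5 fell by 0.29, TOMM34 by 0.25 and NUDC by 0.15, while FKBP8 rose by 0.13, AHSA2P by 0.11 and ST13 by 0.09. Against KD, the libraries labelled OE were higher in CHORDC1 by 0.48, in PPID by 0.28 and in TSC1 by 0.26, and differed by -0.29 in STUB1 and -0.14 in PIH1D1 (-0.09 with block medians removed). TSC1 lies in a block of chromosome 9 whose median differed by -0.35 in KD and -0.10 in OE, and with the block median removed its KD difference turned from -0.25 to 0.09 and the call between OE and KD was lost (0.01).

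Most of the heat shock factors and the genes HSF1 induces were lower in both comparisons. Of 30 listed, 28 had values, and 20 fell and 4 rose in KD (26.9% and 26.9% of all genes), with a median difference of -0.24. The lists share genes, so their counts are not separate. CHORDC1, STIP1, AHSA1 and CACYBP are also in the co-chaperone list and HSPD1 is also in the mitochondrial list, and all of these fell in both comparisons. In OE 18 fell and 5 rose (18.0% and 16.9% of all genes), with a median of -0.08. Between OE and KD 18 were higher in OE and 1 lower (23.5% and 23.8% of all genes). HSPA1A, an inducible HSP70, had 11.090, 11.003 and 11.094 in the parental libraries, 9.988, 9.953 and 9.998 in those labelled KD, and 10.591, 10.567 and 10.649 in those labelled OE. It fell by 1.08 in KD (limma adjusted p 1.17e-25) and by 0.46 in OE (adjusted p 3.74e-15), with no overlap between the groups. HSPA1B, its near-identical neighbour with which reads may be shared, fell by 0.998 and 0.502. HSPH1, a nucleotide exchange factor for HSP70, fell by 0.60 and 0.24. The rises were smaller. BAG3 rose by 0.13, the collagen chaperone SERPINH1 by 0.08 and HSPB1 by 0.07 in KD, and HSPB8 by 0.21 and SERPINH1 by 0.15 in OE. HSPB1 was no longer called in KD without KD replicate 3 (0.04), parental replicate 1 (0.04) or parental replicate 2 (0.06), nor without a variance trend or with a pseudocount of 10. Against KD the OE libraries were higher in HSPA1A by 0.62, HSPB8 by 0.50 and HSPA1B by 0.50, and differed by -0.19 in BAG3.

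HSF1 itself had 11.59, 11.65 and 11.64 in the parental libraries, 11.29, 11.33 and 11.36 in those labelled KD, and 11.43, 11.49 and 11.50 in those labelled OE. The groups did not overlap, and HSF1 fell by 0.30 in KD (limma adjusted p 4.14e-13) and by 0.15 in OE (adjusted p 2.09e-06). Its 20-Mb block on chromosome 8 had a median difference of -0.22 in KD and -0.09 in OE, and with that median removed the HSF1 differences were -0.08 (adjusted p 0.00294) and -0.06 (adjusted p 0.0235). With block medians removed in the whole list, 20 of 28 fell and 4 rose in KD, and 19 fell and 5 rose in OE, beside 59.0% and 38.7% of all genes called with that setting.

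**Figure D4:**
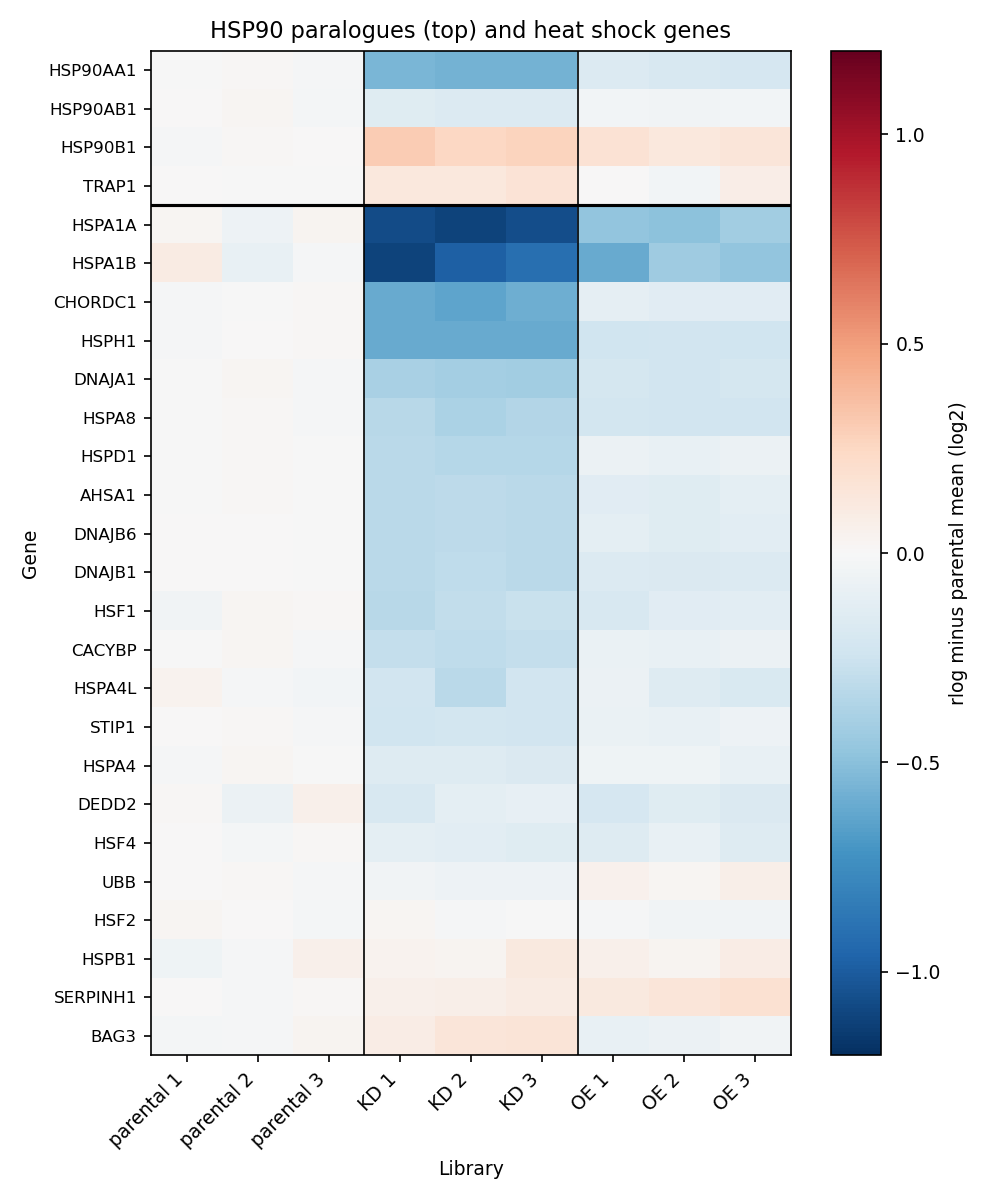
Each cell is the rlog value of a gene in a library minus the mean of the 3 parental libraries (log2, colour scale), for the 4 HSP90 paralogues in the top rows and all but 1 of the listed heat shock genes with a mean rlog of 8 or more below the black line, sorted by their mean in KD. HSPA1A and HSPA1B show the deepest falls, and most rows are lower in KD than in OE.

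The partners of HSP90B1 did not move as one group. Of 30 listed, 27 had values, and 13 rose and 8 fell in KD (26.9% and 26.9% of all genes), with a median difference of 0.04, while 9 rose and 10 fell in OE (16.9% and 18.0%), with a median of 0.01. With block medians removed, 10 rose and 6 fell in KD (59.0% of all genes called) and 10 rose and 7 fell in OE (38.7% called). HSPA5 (BiP), the HSP70 of the endoplasmic reticulum, had 15.38, 15.39 and 15.36 in the parental libraries, 15.05, 15.03 and 15.03 in those labelled KD, and 15.27, 15.25 and 15.27 in those labelled OE. It fell by 0.34 in KD (limma adjusted p 1.18e-23) and by 0.11 in OE (adjusted p 1.2e-10), opposite to HSP90B1. HSPA5 lies in the same block of chromosome 9 as TSC1, with a median of -0.35 in KD and -0.10 in OE, and with it removed HSPA5 differed by 0.01 in KD (adjusted p 0.376) and by -0.01 in OE (adjusted p 0.61). MANF fell by 0.31 in KD beside a block median of -0.31 on chromosome 3, and MESD fell by 0.21 beside 0.08. Those that rose most in KD were the BiP co-chaperone DNAJB11 by 0.28, beside a block median of 0.23, the disulfide isomerase PDIA4 by 0.25 and the stress sensor ERN1 by 0.24. In OE the isomerases PDIA6 and PDIA3 rose by 0.15 and 0.13 and PPIB by 0.11, and SYVN1 fell by 0.17, HSPA5 by 0.11 and DNAJB9 by 0.11. The DNAJB9 call was lost without OE replicate 3 (-0.06), OE replicate 2 (-0.11), parental replicate 1 (-0.11) or parental replicate 3 (-0.08), and also with median centring, without a variance trend or with a pseudocount of 10. Against KD, OE was higher in MANF by 0.25, HSPA5 by 0.23 and MESD by 0.11, and differed by -0.25 in DNAJB11, -0.21 in SYVN1 and -0.17 in PDIA4, where with block medians removed the calls of HSPA5 and DNAJB11 were lost and MANF was called lower (-0.06, adjusted p 0.00954). That setting also ended the KD calls of MANF and DNAJB11.

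Of 31 listed symbols of mitochondrial chaperones, proteases and partners of TRAP1, 28 had values. DNAJC20, listed without values, is another symbol of HSCB, which was measured. In KD 3 rose and 18 fell (26.9% and 26.9% of all genes), with a median of -0.08, and in OE 2 rose and 9 fell (16.9% and 18.0%), with a median of -0.04. With block medians removed, 3 rose and 15 fell in KD (59.0% of all genes called) and 6 rose and 9 fell in OE (38.7% called, 56.9% of these higher). The TRAP1 difference of 0.14 in KD was thus on the side of the 3 that rose. PPIF (cyclophilin D), a TRAP1 partner that regulates the permeability transition pore, fell by 0.46 in KD and 0.27 in OE (limma adjusted p 4.85e-20 and 2.7e-13). HSPD1, the mitochondrial HSP60, had 15.25, 15.28 and 15.26 in the parental libraries, 14.94, 14.92 and 14.92 in those labelled KD, and 15.20, 15.17 and 15.19 in those labelled OE, falling by 0.33 and 0.08. HSPA9, the mitochondrial HSP70, fell by 0.22 and 0.05, and the OE call was lost without a variance trend (-0.05) and under quantile normalization (-0.01). PMPCA fell by 0.35 and 0.12 beside a block median of -0.35 and -0.10 on chromosome 9, and neither call stood with that median removed. The protease HTRA2 rose by 0.23, LONP1 by 0.12 and DNAJC19 by 0.07 in KD. DNAJC19 lies in a block with a median of 0.23 and was called lower with it removed (-0.16, adjusted p 6.47e-06), and it was not called without KD replicate 1 (0.06), KD replicate 2 (0.08), KD replicate 3 (0.07), parental replicate 1 (0.06) or parental replicate 3 (0.06). CLPX rose by 0.08 and LONP1 by 0.08 in OE, where SPG7 fell by 0.11, and with block medians removed LONP1 differed by 0.14 and SPG7 by -0.05 there. Against KD, OE was higher in CYCS by 0.29, HSPD1 by 0.26 and CYC1 by 0.23 (0.09 with block medians removed), and differed by -0.21 in HTRA2, -0.10 in HSCB and -0.04 in LONP1. The HSCB call was lost without KD replicate 2 (-0.07) or 3 (-0.09) or OE replicate 1 (-0.11), 2 (-0.11) or 3 (-0.09), and that of LONP1 without KD replicate 2 (-0.04) or 3 (-0.03) or OE replicate 1 (-0.03) or 2 (-0.04). Both calls were also lost with block medians removed (-0.07 and -0.0024), with median centring, without a variance trend, with a pseudocount of 10 and under quantile normalization.

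**Figure D5:**
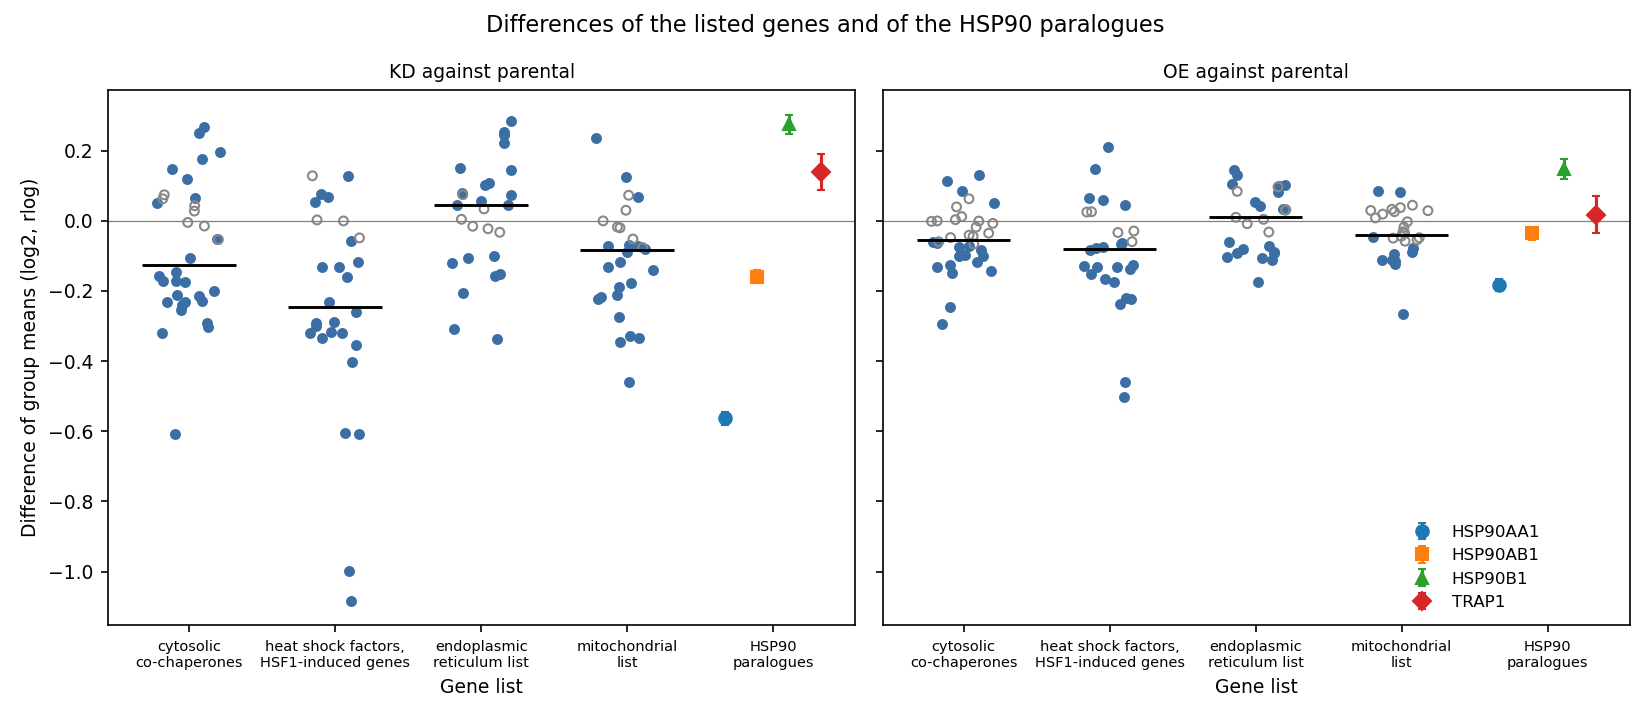
Difference of group means (log2, rlog) of each listed gene from parental in KD (left) and OE (right), with filled points for called genes, open points for the others, a black bar at each list's median, and the 4 HSP90 paralogues with 95% confidence intervals at the right of each panel. The median of the heat shock list was -0.24 in KD and -0.08 in OE, and HSP90AA1 lay below it in both panels.

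The genes whose profile over the 9 libraries was nearest to each member were sought among 9945 other genes with a symbol and a mean rlog of 8 or more, by the root mean square difference of the centred values. Nearest to HSP90AA1 was its pseudogene HSP90AA2P at 0.0189 log2, then RBM18 at 0.0205 and NUP188 at 0.0215, both from the block of chromosome 9 with a median of -0.35 in KD. HSP90AB1 was nearest to HNRNPK at 0.00859, from another block of chromosome 9 with a median of -0.35 in KD, UBE2N at 0.00933 and PWP1 at 0.00965. HSP90B1 was nearest to TTC3 at 0.0138, DERA at 0.0155 and CLIP4 at 0.0170. For TRAP1 the nearest were MDH2 at 0.0183, PPP1R21 at 0.0185 and ACADVL at 0.0188. Between the members themselves the same measure was smallest for HSP90B1 and TRAP1, at 0.0708, and largest for HSP90AA1 and HSP90B1, at 0.345.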

How the data were processed

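RNA from the cells labelled IMR-32 was sequenced with the TruSeq RNA Library Prep Kit v2 on a NovaSeq6000. The authors trimmed reads with cutadapt, aligned them with HISAT2 to GRCh38, counted them with featureCounts of Subread, dropped genes with fewer than 10 reads in total and deposited rlog values of DESeq2, which are on a log2 scale. Versions, annotation and counting settings were not given in the sources used here. Of the 22290 gene identifiers, 22195 matched GENCODE release 44, used for lengths and positions. The 9 libraries were fitted by group in limma 3.58.1 (R 4.3.3) with a variance trend, tested on simulated data before use, and adjusted by Benjamini-Hochberg over all genes. Summed levels and pair differences were compared by two-sided exact permutation tests. The members and gene lists were chosen with earlier results of these data known. Named genes were, per list and comparison, the 3 called genes with the largest rise and the 3 with the largest fall, plus HSF1, HSPA5, HSPA9, HSPD1, pseudogenes, neighbours and nearest profiles. List genes without values were not analysed here. A few genes that this rule or the marker lists take in are not reported here.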

Additional observations from a re-analysis of the deposited data

How the results depend on the processing

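In KD against parental and in OE against KD, each of the 4 paralogues kept its direction and its call under every alternative run for it. The addition of pseudogene levels, chosen after the data were seen, was run for the 3 members other than TRAP1. HSP90B1 kept both in OE against parental too, and HSP90AA1 did except under quantile normalization. That normalization set the OE differences of HSP90AA1 and HSP90AB1 to 0, since it gives a gene of the same rank the same value in each library and these genes are at the top of the range. In OE, HSP90AB1 also lost its call after 20-Mb block medians were removed (-0.0112), without a variance trend (-0.0360, adjusted p 0.157) and with a pseudocount of 10 (-0.0360, adjusted p 0.095), with adjusted p-values over its alternatives from 5.8e-05 to 1. TRAP1 in OE was called once block medians were removed (0.0637, adjusted p 0.0343). With 1 library left out, its difference ran from -0.0118 to 0.0417, turning negative without OE replicate 3. HSP90B1 minus TRAP1, OE against KD, ran from -0.0233 to 0.0259 and turned positive without OE replicate 3 or KD replicate 1.

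Counts of called genes ran from 10189 to 13148 in KD, from 6857 to 8619 in OE and from 9171 to 11876 between them. Same-numbered libraries of different groups did not deviate together in every pair (correlations from -0.12 to 0.268), so the numbers were not taken as pairs. With the replicate block, 12015, 7854 and 10623 genes were called, and no member's call changed.

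The parental shares of HSP90AA1, HSP90AB1, HSP90B1 and TRAP1 were 64.6%, 29.9%, 5.01% and 0.523% with coding length, 64.5%, 29.5%, 5.49% and 0.502% with no division by length and 59.2%, 34.2%, 5.85% and 0.67% with canonical transcripts. The libraries labelled KD had HSP90AA1 on top in 0% with merged exons and in 100% with coding length, canonical transcripts or no division by length.

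Sign changes with 20-Mb block medians removed were counted for named genes other than the markers and the genes overlapping a member. Only differences called with or without the medians were taken. Signs turned in KD for TSC1 (0.09), HSPA5 (0.0112), DNAJC19 (-0.16), PMPCA (0.0037), CYC1 (0.0045), HSP90AB7P (0.11) and HNRNPK (0.20), and in OE for HNRNPK (0.0422). In OE against KD they turned for HSPA5 (-0.0189), MANF (-0.0554), DNAJC19 (0.20), PMPCA (-0.0245), HSP90AB7P (-0.0924) and HNRNPK (-0.16). The cause was not tested. The methods state a nominal depth, but the reads of each library cannot be read from rlog values, so the precision they set could not be given.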
